A study of Schizosaccharomyces pombe with 22 samples.

Results

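The fission yeast Schizosaccharomyces pombe transcribes many long noncoding RNAs, and 554 introns that the authors found inside them but that were absent from their annotation are described here. They were taken as every unannotated intron whose type in the authors' table was ncRNA, which made them 554 of 8113 unannotated introns (6.83%). An intron is counted here as 1 pairing of a branch point with a 5' splice site, so the 554 comprised 389 5' splice sites, 485 branch points and 469 exon-exon junctions. The table named 244 host RNAs for 542 of them and gave no host name for the other 12.

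Splicing removes an intron as a lariat, a loop in which the first base of the intron is joined to an adenosine, the branch point, near its end. The enzyme Dbr1 opens that loop, so lariats last in cells that lack it, and a read across the joint places the 5' splice site and the branch point together. Introns of noncoding RNAs in this yeast include those that carry small nucleolar RNAs, guides for the modification of ribosomal RNA.

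The lariat libraries came from a dbr1 deletion in the 972h- background after heat shock, after the diauxic shift, the switch to respiration at the end of glucose, and in rich media. Each condition had 4 libraries, a long and a short gel fraction of 2 replicates, made from total RNA without keeping strand, and the authors deposited 1 sum per condition. RNA-seq of polyadenylated RNA covered the dbr1 deletion and wild type 972h- in the same 3 conditions, with 1 library each, and strain ED668 without upf1, a helicase of nonsense-mediated decay, beside ED668 itself, with 2 libraries each. Cells were grown at 30 °C outside heat shock. The labels do not say which libraries came from separate cultures, so p-values measure the spread between libraries, which may be technical. In the growth comparison, with 1 library per strain and condition, this spread is what terms for strain and condition leave over. Transcript levels of dbr1 and upf1 are not analysed here.

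The lariat sums held 429329 reads at annotated introns after heat shock, 1323020 after the diauxic shift and 1288031 in rich media, and these totals served as the scale for lariat values. RNA-seq libraries held 12330328 to 33439493 aligned reads, the second value being the mean that was used for both upf1 deletion libraries. Lariat values had no replicate error, so 95% intervals cover only counting error, and PCR copies of 1 molecule count as separate reads.

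The sequences of 8 introns show the range of the set, from the most read lariats to those with many junction reads. They are read 5' to 3' from RefSeq's genome ASM294v3, on the strand of the host. Capitals mark the first 6 bases, the 5 bases around the branch point (with the branch adenosine as the 4th of them) and the last 3 bases. The authors' positions are on ASM294v2, and on ASM294v3 all 8113 unannotated introns began with GT, had A at the branch point and ended in AG, so the positions were used unchanged. First come introns of small nucleolar RNA hosts, namely the snoZ intron that holds snoZ3 (chrI:527592-527768, forward strand), the snoZ intron that holds snoZ8 (chrI:526693-526854, forward strand) and the intron of SPNCRNA.1038, whose name in RefSeq is snR90 (chrI:4937014-4937199, reverse strand).
snoZ intron with snoZ3: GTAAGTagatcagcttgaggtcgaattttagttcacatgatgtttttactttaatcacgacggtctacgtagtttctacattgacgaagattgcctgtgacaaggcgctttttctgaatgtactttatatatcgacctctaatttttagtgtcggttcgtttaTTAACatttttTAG
snoZ intron with snoZ8: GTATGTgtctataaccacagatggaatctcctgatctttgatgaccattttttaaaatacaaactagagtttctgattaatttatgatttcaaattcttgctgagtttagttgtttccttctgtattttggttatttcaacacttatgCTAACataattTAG
SPNCRNA.1038 intron: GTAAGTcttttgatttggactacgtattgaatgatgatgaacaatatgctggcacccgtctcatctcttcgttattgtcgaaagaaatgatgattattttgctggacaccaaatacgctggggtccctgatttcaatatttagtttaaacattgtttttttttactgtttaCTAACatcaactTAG

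Next are 3 introns without an annotated small RNA whose lariat reads differed between conditions, from SPNCRNA.1366 (chrII:521001-521140, reverse strand), SPNCRNA.1308 (chrII:103448-103531, reverse strand) and SPNCRNA.1358 (chrII:444987-445085, forward strand). The first 2 carry CTAAC and CTGAC around the branch point, and the SPNCRNA.1358 intron starts with GTGAGT.
SPNCRNA.1366 intron: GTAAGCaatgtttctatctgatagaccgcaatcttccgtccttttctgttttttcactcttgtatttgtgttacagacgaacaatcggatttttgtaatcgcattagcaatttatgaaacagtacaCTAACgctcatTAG
SPNCRNA.1308 intron: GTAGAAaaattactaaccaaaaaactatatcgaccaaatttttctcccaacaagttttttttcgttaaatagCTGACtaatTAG
SPNCRNA.1358 intron: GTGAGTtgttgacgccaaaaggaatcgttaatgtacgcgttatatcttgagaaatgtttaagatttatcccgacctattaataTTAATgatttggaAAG

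The last 2 had many junction reads in polyadenylated RNA, from SPNCRNA.1597 (chrII:3391070-3391177, forward strand) and SPNCRNA.1337 (chrII:297620-297671, forward strand), the second being 52 bases long.
SPNCRNA.1597 intron: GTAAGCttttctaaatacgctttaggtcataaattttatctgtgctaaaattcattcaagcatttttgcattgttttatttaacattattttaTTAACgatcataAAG
SPNCRNA.1337 intron: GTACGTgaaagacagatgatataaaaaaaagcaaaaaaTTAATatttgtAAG

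The introns were spread over the genome, with 294 on chromosome I, 191 on II and 69 on III, and 297 lay on the forward and 257 on the reverse strand. Their lengths ran from 32 to 513 bases with a median of 106, against 93 for branches at annotated introns and 104 for unannotated intergenic ones. The branch point lay 7 to 128 bases before the last base of the intron, with a median of 13. A whole annotated small RNA on the same strand lay inside 35 of them. A coding gene on the opposite strand overlapped 44 introns (7.94%), and one on the same strand overlapped 5. The lariat libraries kept no strand, and strand was taken from the order of the authors' 5' splice site and branch point positions. No intron sequence of the set occurred at more than 1 place in the genome.

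The most frequent letters of annotated introns were less frequent in the set at the 5' splice site and around the branch point. The start GTANGT, where N is any base, was found in 206 of 554 (37.2%), against 65.3% of 4301 annotated branches, 37.4% of 1352 intergenic ones and 32.3% of 269 introns antisense to noncoding RNAs. Among the 106 introns with at least 10 lariat reads the share was 45.3%, and among the 250 with 1 read it was 35.6%. A T 2 bases before the branch adenosine was as frequent in the set as at annotated branches or more so, with 90.3% against 87.8% over all and 99.1% against 97.2% among those with at least 10 reads. The letters CTAAC around the branch point were found in 12.3% of the set, against 32.7% of annotated branches. At the 3' end TAG was the most frequent triplet with 42.1%, followed by AAG with 38.8% and CAG with 13.7%. All shares were read at the given positions on the strand of the intron. A lariat read does not place the 3' splice site, which is given as the authors assigned it. Of the 554 introns, 209 had a junction read at that site. Intron lengths and the small RNAs inside rest on the same positions.

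A few introns held most of the lariat reads. Of 36262 reads, 90.6% fell on the 28 introns with at least 100 reads, while 250 introns had a single read. The most read intron, the snoZ one with snoZ3, had 7972 reads, or 22% of the total, and the 10 most read had 80.5%. Reads were seen after heat shock at 142 introns, after the diauxic shift at 351 and in rich media at 358, and 85 introns had reads in all 3 conditions. Single conditions accounted for 22 introns seen with heat shock reads alone, 153 with diauxic reads alone and 167 with rich media reads alone. The sums differed in depth, with 429329 reads at annotated introns after heat shock, 1323020 after the diauxic shift and 1288031 in rich media, and the part of depth in these counts was not tested.

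By host, 137 RNAs had 1 intron, 46 had 2 and 61 had at least 3. Those 61 hosts held 313 introns and 93.2% of the reads, with a median of 36 reads per host. SPNCRNA.659, named snoZ in RefSeq and the host of a cluster of small nucleolar RNAs, had 32 introns and 43.1% of all reads. SPNCRNA.723 had 15 introns, and SPNCRNA.765, SPNCRNA.1297 and SPNCRNA.1358 had 11 each. SPNCRNA.812 had 8, and SPNCRNA.1038, SPNCRNA.1694, SPNCRNA.920 and SPNCRNA.1088 had 7 each. In the median host of at least 3 introns, 58.3% of reads lay at the most read one. SPNCRNA.1038 was at the high end, with 6227 of 6270 reads at 1 branch point, while SPNCRNA.1297 had 158 of 287 reads at its most read intron.

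The cluster of small nucleolar RNAs in snoZ was spliced around each of 5 of them. Along the transcript, snoZ8 lay in introns with 4677 lariat reads in all, snoZ7 in introns with 2796, snoZ5 with 77, snoZ4 with 50 and snoZ3 with 8019. Within each group 1 branch point took nearly all reads, except that snoZ7 also had a second branch point 13 bases downstream with 620 reads. SPNCRNA.723 had the same arrangement, with 622 reads at introns around snR41 and 2783 at introns around snR70. Together the 35 introns with a small RNA inside, all from these 2 hosts, held 19024 reads or 52.5% of the total. No annotated small RNA lay inside the SPNCRNA.1038 intron, which is itself listed in the RefSeq annotation.

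**Figure D1:**
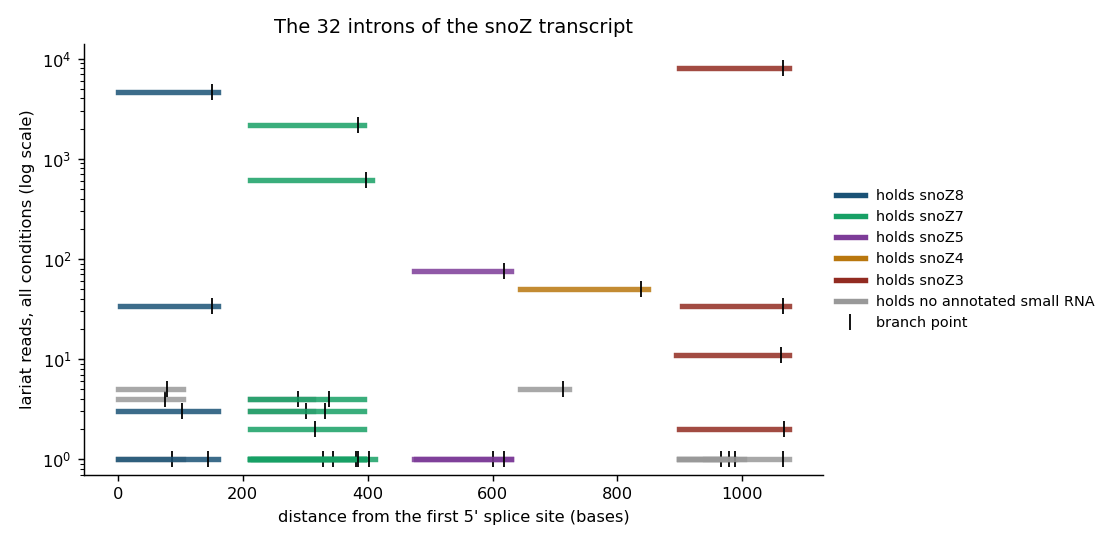
Introns of the snoZ transcript (SPNCRNA.659), each drawn from its 5' to its 3' splice site along the x axis (bases from the first 5' splice site), at a height given by its lariat reads over all conditions (log scale). Colours name the small RNA inside and black ticks mark branch points. The introns around snoZ3, snoZ8 and snoZ7 reach 7972, 4639 and 2162 reads, and those around snoZ5 and snoZ4 reach 75 and 50.

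Minor 5' splice sites 4 bases downstream of a main one recurred. Of 69 introns that shared a branch point with a more read or equally read intron, 14 started 4 bases downstream of it, 5 of them in introns around small RNAs. Around snoZ3 that minor site had 34 reads against 7972 at the main site, and around snoZ8 it had 34 against 4639. This spacing was singled out after its values were seen. The start GTANGT itself holds a GT 4 bases downstream, and every unannotated intron began with GT. The part of these letters in the spacing was not tested.

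After heat shock, lariats of the whole set made up 189 reads per 10000 at annotated introns (8112 reads), against 119.5 in rich media (15394 reads). The ratio was 1.58 (95% interval 1.54 to 1.62). After the diauxic shift the value was 91.7 per 10000 (12137 reads), a ratio to rich media of 0.768 (0.749 to 0.786), and heat shock over diauxic shift gave 2.06 (2.00 to 2.12). Against the values of annotated introns of like length, within 10 bases, the heat shock ratio was on the other side of no change at 0.725, and the diauxic one was 0.611. Scaled by all reads of the lariat libraries instead, the heat shock ratio kept its side at 2.97. The diauxic ratio changed side, at 4.26, and so did heat shock over diauxic shift at 0.696. That scale adds reads at introns, exons, rRNA and all remaining annotation, so it is not a count of lariats alone. It held 9467948 reads after heat shock, 9854589 after the diauxic shift and 53284863 in rich media. The direction of the summed change thus held only relative to the chosen scale.

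Other classes of unannotated introns had other ratios on the same scale. Heat shock over rich media was 2.4 (2.34 to 2.47) for intergenic introns and 2.19 (2.04 to 2.35) for those antisense to noncoding RNAs. Diauxic shift over rich media was 0.850 (0.829 to 0.873) for intergenic introns and 1.99 (1.88 to 2.10) for antisense ones. A single branch held 40.3% of the intergenic and 40.1% of the antisense lariat reads, against 22% in the set. How far a class ratio depends on its most read branch was computed for the set only, as given further below. With sums that have no replicates, these differences from the set could not be tested.

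The introns with small RNAs weighed heavily in the heat shock sum. Their lariats stood at 113 per 10000 after heat shock and 58.8 in rich media, a ratio of 1.93 (1.86 to 2.00), and the other 519 introns at 75.5 and 60.7, a ratio of 1.24 (1.19 to 1.30). The diauxic ratios of both groups were close, at 0.765 (0.740 to 0.792) with a small RNA and 0.770 (0.744 to 0.796) without. The groups within the small RNA hosts were unlike each other. For the introns around snoZ3, heat shock over rich media was 2.61 (2.47 to 2.76), around snoZ5 4.22 (2.51 to 7.19), around snoZ8 1.29 (1.20 to 1.39), around snR70 1.26 (1.14 to 1.38) and around snR41 0.949 (0.754 to 1.19). Around snoZ4 it was 1.13 (0.460 to 2.51) from 9 heat shock and 24 rich media reads. Introns of 1 transcript thus had ratios whose intervals did not overlap, as for snoZ3 and snoZ8. The main snoZ7 intron had a ratio of 3.14 (2.82 to 3.49), but of the 2796 reads around snoZ7, 619 at the second branch point are in the authors' total and in no condition. With those reads all in heat shock or all in rich media, the ratio of the snoZ7 introns together would be 5.81 or 1.65, and that of all introns with a small RNA 2.17 or 1.78. The diauxic ratio of the introns with a small RNA would be 0.845 with them all in the diauxic shift and 0.708 with them all in rich media.

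**Figure D2:**
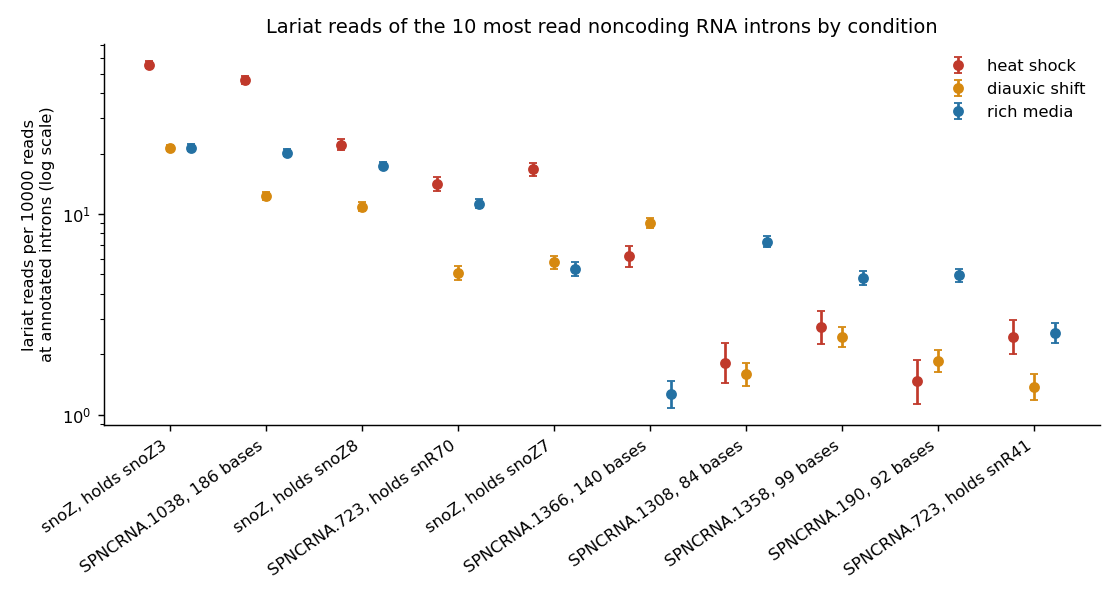
Lariat reads per 10000 reads at annotated introns (y axis, log scale) of the 10 most read introns whose total matched the sum of its conditions, with exact 95% counting intervals, for heat shock, diauxic shift and rich media from left to right. The snoZ3 intron stands at 55.5, 21.4 and 21.4, and the SPNCRNA.1366 intron at 6.17, 9.03 and 1.27.

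Among the most read introns, those of small nucleolar RNA hosts stood highest after heat shock on the scale of reads per 10000, except the snR41 intron, while several shorter ones stood highest in rich media. The SPNCRNA.1038 intron had 1997 reads after heat shock, 1625 after the diauxic shift and 2605 in rich media, which gave scaled ratios to rich media of 2.30 (2.17 to 2.44) and 0.607 (0.570 to 0.646). The SPNCRNA.1366 intron had 265 heat shock, 1195 diauxic and 163 rich media reads, with ratios of 4.88 (4.0 to 5.97) and 7.14 (6.06 to 8.46). Of the 9 most read introns with ratios, it alone had intervals above 1 in both conditions. The SPNCRNA.1308 intron went the other way, with 78 heat shock, 210 diauxic and 937 rich media reads and ratios of 0.250 (0.196 to 0.315) and 0.218 (0.187 to 0.254). The SPNCRNA.190 intron (chrI:2303831-2303922) had 63, 246 and 636 reads in the same order, and its ratios were 0.297 (0.226 to 0.385) and 0.377 (0.324 to 0.437). The SPNCRNA.1358 intron of 99 bases had 117, 323 and 618 reads, with ratios of 0.568 (0.462 to 0.693) and 0.509 (0.443 to 0.583). On the scale of all reads of the lariat libraries the diauxic ratios of SPNCRNA.1038, SPNCRNA.1308, SPNCRNA.190 and SPNCRNA.1358 lay above 1. So did the heat shock ratio of SPNCRNA.1358, while SPNCRNA.1366 stayed above 1 in both.

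Ratios could be set beside those of other branches for introns with at least 20 reads over the 2 conditions. For heat shock over rich media these were 56 introns, of which 14 were more than 2-fold higher and 22 more than 2-fold lower, where all 2590 branches with as many reads gave 24.5% and 41.3%. Their median ratio was 0.875, against 0.681 for all branches. For diauxic shift over rich media, 16 of 70 were more than 2-fold higher and 27 more than 2-fold lower, against 23.1% and 41.1% of all branches, with medians of 0.625 and 0.761. For heat shock over diauxic shift, 16 of 48 were more than 2-fold higher and 14 lower, against 35.8% and 23.4%. The shares of the set lay near those of all branches.

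Longer introns of the set tended to have higher ratios. Over the 56 introns the Spearman correlation of length with the heat shock ratio was 0.605, and over the 70 it was 0.396 with the diauxic ratio. The points share 3 sums of libraries and, in part, a host. At annotated introns the median log2 heat shock ratio was -2.86 at 50 to 59 bases and 2.13 at 150 to 159, but 1.03 at 170 to 179. Their median log2 diauxic ratio was -5.43 at 50 to 59 bases and 1.06 at 120 to 129, but 0.19 at 150 to 159, so neither kept rising with length. Relative to the median of annotated introns within 10 bases of length, 21 introns had a higher and 35 a lower heat shock ratio, and 30 had a higher and 40 a lower diauxic ratio. The part that gel fractions play in the sums was not tested.

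**Figure D3:**
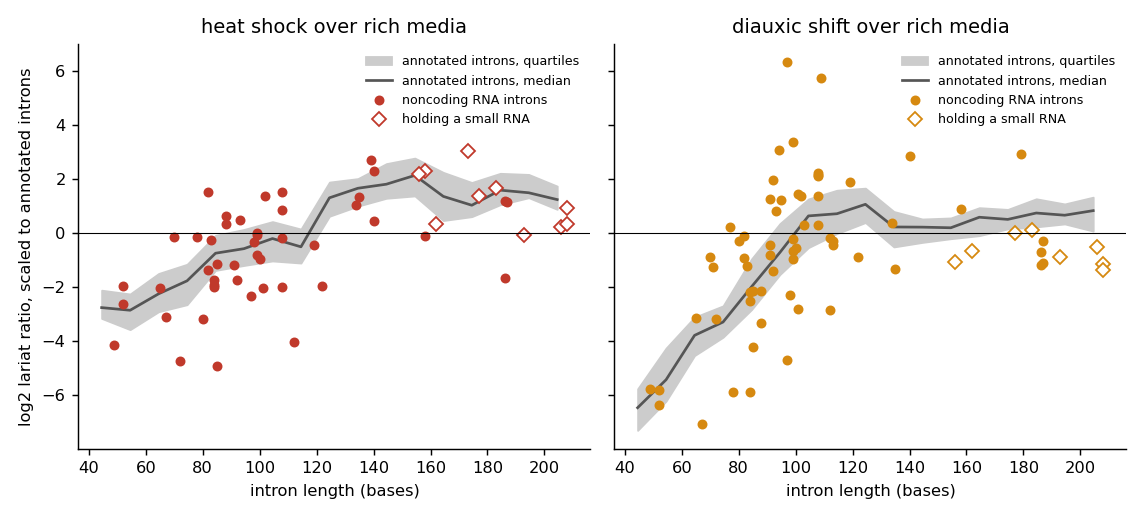
Log2 lariat ratio of heat shock (left) and diauxic shift (right) over rich media, with 0.5 reads added to each side, against intron length in bases, for introns with at least 20 reads. Points are noncoding RNA introns, open diamonds those with a small RNA inside, and the line and grey band give the median and quartiles of annotated introns by length. Introns under 70 bases lie low in both panels, where annotated introns do too, and the diamonds of the right panel lie under the annotated median.

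The highest heat shock ratios belonged in part to the minor sites. The intron starting 4 bases downstream in the snoZ3 group had 20 heat shock, 7 diauxic and 7 rich media reads, with a heat shock ratio of 8.57 (3.48 to 24), against 2.59 (2.45 to 2.74) at the main site. Its counterpart in the snoZ8 group had 15, 10 and 9 reads and a ratio of 5.0 (2.05 to 13.0), against 1.27 (1.18 to 1.38). SPNCRNA.1489 (chrII:2138182-2138320), which overlaps emc3 on the other strand, had 20, 9 and 9 reads and a ratio of 6.67 (2.90 to 16.6). The main snoZ5 intron had 38, 12 and 25 reads and 4.56 (2.68 to 7.88).

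At the low end after heat shock, reads were absent from 4 introns. SPNCRNA.841 had 0 heat shock and 45 rich media reads, which made it at least 5.0-fold lower when 3 reads stand in for 0. By the same bound SPNCRNA.1425 (39 rich media reads) was at least 4.33-fold lower, SPNCRNA.1316 (26 reads) at least 2.89-fold and SPNCRNA.1105 (24 reads) at least 2.67-fold. These bounds leave out counting error. An intron without a host name at chrII:2610714-2610793 had 3 heat shock and 96 rich media reads, a ratio of 0.0938 (0.0190 to 0.282), but 80 diauxic reads.

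After the diauxic shift, the highest ratio with reads in both conditions was that of SPNCRNA.1472 (chrII:1878023-1878119). It had 122 diauxic reads and 1 in rich media, a ratio of 119 whose interval had a lower end of 20.9, and 10 heat shock reads. SPNCRNA.1068 (chrI:5311009-5311107) had 79 diauxic and 7 rich media reads, a ratio of 11 (5.09 to 28.2). SPNCRNA.878 (chrI:3040998-3041091) had 21 and 2, with 10.2 (2.50 to 89.9). SPNCRNA.1500 (chrII:2267491-2267669) had 27 and 3, with 8.76 (2.70 to 45.1). SPNCRNA.1530 (chrII:2580913-2581021) had 27 and 0, so that it was at least 8.76-fold higher when 3 reads stand in for 0, and the lower end of its counting interval was 6.65.

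The lowest diauxic ratios were of short introns, with bounds that again set 3 reads for 0 and leave out counting error. The 67-base intron of SPNCRNA.1358, which shares its branch point and 3' splice site with the 99-base one, had 0 diauxic and 64 rich media reads and was at least 21.9-fold lower. The SPNCRNA.1337 intron of 52 bases had 0 and 40 reads and was at least 13.7-fold lower, while its counting interval reached up to a ratio of 0.0941. SPNCRNA.823 and SPNCRNA.766 had 0 and 28 reads each (at least 9.59-fold lower), and the 52-base intron of SPNCRNA.1308 had 0 and 27 (at least 9.24-fold lower). Annotated introns within 10 bases of 52 and of 67 bases had median ratios of 0.0241 and 0.0743.

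Junction reads in polyadenylated RNA were sought for the same introns. At least 1 read was found for 162 of 469 junctions, which belonged to 209 of 554 introns (37.7%), against 22.3% of intergenic introns, 27.1% of antisense ones and 29.0% of all unannotated ones. The share was 23.2% (Wilson 95% interval 18.4 to 28.8) among introns with 1 lariat read and 85.7% (68.5 to 94.3) among those with at least 100. Introns with the same junction share its reads, and the intervals treat them as separate. For example, a snoZ8 branch point with 1 lariat read carries the 11 junction reads of the one with 4639. Reads came from all 10 libraries for 12 junctions. Of 6012 reads in all, 43.4% lay at 3 junctions, and 71 junctions had at least 10 reads. Per 1000000 aligned reads, the set had 39.8 and 31.7 in the upf1 deletion, 33.5 and 30.9 in ED668, and between 13.3 and 21.2 in the 6 libraries of growth conditions.

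The junction of SPNCRNA.1597 had the most reads. It had 182 and 187 reads in the upf1 deletion and 202 and 199 in ED668. In the dbr1 deletion it had 46 after heat shock, 31 after the diauxic shift and 69 in rich media, and in wild type 82, 85 and 66. The authors' PSI, a value between 0 and 1 for the spliced share, was 0.861 to 0.982 in the 8 libraries where it could be assigned, with an unstated denominator. This intron is an intron of the coding gene ina17 on the same strand in RefSeq, so host and coding gene cannot be told apart in its reads. Its lariats numbered 293, with 10 after heat shock, 158 after the diauxic shift and 125 in rich media, so the heat shock ratio was 0.240 (0.112 to 0.456) and the diauxic one 1.23 (0.967 to 1.57).

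The SPNCRNA.1038 junction (snR90) had 283 and 210 reads in the upf1 deletion and 158 and 172 in ED668. Its counts were 4, 2 and 17 in the dbr1 deletion after heat shock, after the diauxic shift and in rich media, and 5, 15 and 17 in wild type. It was thus read mainly in the ED668 background, at 5.0 and 5.4 reads per 1000000 aligned in ED668 against 1.4 in wild type 972h- in rich media. Strain and library set cannot be told apart in that difference. PSI was 0.893 and 0.867 in ED668 and 0.391 to 0.773 in the other libraries.

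SPNCRNA.800 (chrI:2154224-2154295) had 578 junction reads but a single lariat read. Its junction had 154 and 95 reads in the upf1 deletion, 106 and 89 in ED668, and 10 to 41 in the libraries of growth conditions. Its PSI was 0.796 to 0.994. The opposite balance was seen for the snoZ3 intron, with 7972 lariat reads and 182 junction reads, namely 26 and 37 in the upf1 deletion, 59 and 40 in ED668 and 1 to 7 in the other libraries, where PSI was 0.067 to 0.231.

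Other junctions with many reads were those of SPNCRNA.1337 with 235, SPNCRNA.1503 with 211, SPNCRNA.1042 with 197, SPNCRNA.1533 with 115, SPNCRNA.1316 with 102 and a junction without a host name at chrI:3178669-3178854 with 97. The highest mean PSI over the 8 libraries was 0.932 at SPNCRNA.1597, followed by SPNCRNA.800 with 0.910, SPNCRNA.1617 with 0.904, SPNCRNA.841 with 0.833 and SPNCRNA.1293 with 0.797. SPNCRNA.841 and SPNCRNA.1293 had 61 and 45 reads over all libraries, so their PSI rests on few reads.

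**Figure D4:**
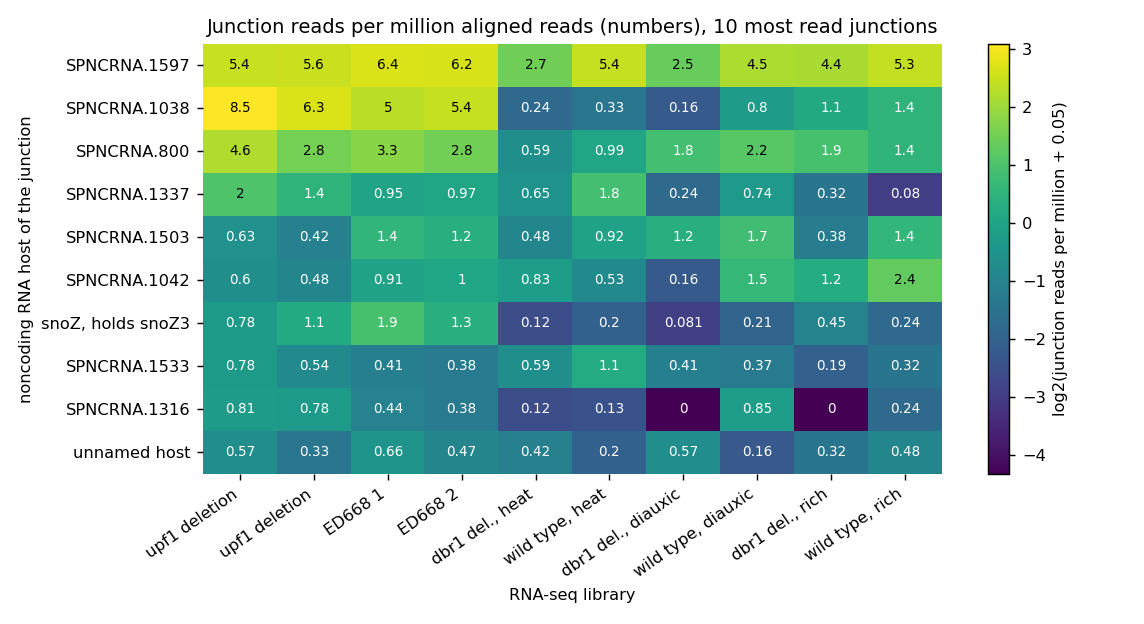
Junction reads per 1000000 aligned reads (numbers in the cells, colours on a log2 scale after adding 0.05) of the 10 most read junctions (y axis) in each of the 10 RNA-seq libraries (x axis). SPNCRNA.1597 is high in every library, while SPNCRNA.1038, SPNCRNA.800 and the snoZ3 junction stand higher in the 4 libraries of the ED668 background than in the other 6.

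The growth conditions were compared over the 6 libraries of the dbr1 deletion and wild type. Only 97 junctions had reads enough for the edgeR quasi-likelihood test, 7 of them from this set, and none of the 7 was called at an adjusted p below 0.05 in any contrast. The 97 were drawn from unannotated introns together with introns that the authors list as alternate. After heat shock against rich media edgeR called 14 of 97 junctions (14.4%), after the diauxic shift 4 (4.12%), between heat shock and diauxic shift 9 (9.28%) and between the dbr1 deletion and wild type 0 (0%). At an unadjusted p below 0.05 edgeR had 3, 1, 1 and 0 of the 7, and 3 of the 97 for the dbr1 deletion. DESeq2 called 0 of the 7 in each contrast, and 2 of the 97 for the dbr1 deletion.

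SPNCRNA.1337 and SPNCRNA.1038 gave 2 of those unadjusted values for heat shock. The SPNCRNA.1337 junction had 11 and 27 reads after heat shock in the dbr1 deletion and wild type, 3 and 14 after the diauxic shift, and 5 and 1 in rich media. Its heat shock counts lay above both rich media counts, with a log2 change of 2.36 (SE 0.98, edgeR adjusted p = 0.120). The SPNCRNA.1038 junction had a log2 change of -2.05 (SE 0.89, edgeR adjusted p = 0.147). The third, the 67-base intron of SPNCRNA.1358, had 13 and 13 junction reads after heat shock and 0 in each of the 4 libraries of the diauxic shift and rich media (edgeR adjusted p = 0.222 against rich media). Without the dbr1 deletion library of the diauxic shift, this junction was called (edgeR adjusted p = 0.0265).

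Lariats and junctions of the same intron did not always move together. With at least 20 lariat reads and 10 junction reads over heat shock and rich media, 13 junctions could be set side by side. In 6 the counting intervals of both ratios lay on opposite sides of 1. The share among other unannotated junctions was not computed, so the count cannot be read as a trait of this set. Lariats were lower and junction reads higher after heat shock at SPNCRNA.1337 (lariat ratio 0.225, 0.0445 to 0.707, junction ratio 5.54, 2.33 to 16) and at SPNCRNA.1533 (0.188, 0.0218 to 0.735, against 3.38, 1.43 to 9.18). The same held for both SPNCRNA.1358 junctions, with 11 and 26 junction reads after heat shock and 0 in rich media. The longer introns of SPNCRNA.1038 and SPNCRNA.1042, of 186 and 187 bases, went the other way, with lariat ratios of 2.28 (2.15 to 2.42) and 2.21 (1.31 to 3.70) and junction ratios of 0.232 (0.0977 to 0.493) and 0.401 (0.231 to 0.678). For the junction ratios the reads of both strains were summed and scaled by aligned reads. The lariat ratios were scaled by reads at annotated introns, so the counts of opposite pairs hold for these scales only. Scaled by all reads of the lariat libraries, the heat shock lariat ratio of the 99-base SPNCRNA.1358 intron lay above 1, as did its junction ratio. Of the 13 junctions, 6 had reads enough for the edgeR test of heat shock against rich media, and none of the 6 was called with all libraries in the fit. SPNCRNA.1366 was higher in both, at 4.85 (3.98 to 5.93) and 5.25 (1.17 to 48.3). For the diauxic shift, 3 of 13 lay on opposite sides, again without a share for other junctions. Among them were the snoZ5 and SPNCRNA.1503 introns. Their lariat ratios lay above 1 when scaled by all reads of the lariat libraries, as did their junction ratios. The pairs were set side by side after the values were seen, and the part of intron length was not tested.

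For the upf1 deletion against ED668, 186 junctions passed the count filter, drawn from unannotated introns only. Of these edgeR called 86 (46.2%), and of 23 from this set it called 11, so the share in the set was near the background. Of the 11, 3 were higher and 8 lower, where all junctions gave 25.3% higher and 21% lower. The median log2 change of the 23 was -0.19, against 0.07 for all 186. Scaling by aligned reads without TMM shifted the median of all junctions by 0.26, and the calls were then 52 higher and 20 lower over all junctions (47 and 39 with TMM) and 4 higher and 2 lower in the set. DESeq2 called 5 of the set, 2 higher and 3 lower.

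SPNCRNA.1503 and SPNCRNA.1644 were called in each of the 7 alternatives. SPNCRNA.1503 (chrII:2328599-2328668) had 21 and 14 junction reads in the upf1 deletion and 45 and 38 in ED668. Both deletion counts lay below both ED668 counts, with a log2 change of -1.57 (SE 0.27, edgeR adjusted p = 3.71e-04). SPNCRNA.1644 (chrII:3829042-3829129) had 27 and 34 reads in the upf1 deletion and 8 and 7 in ED668, without overlap, and a log2 change of 1.68 (SE 0.40, edgeR adjusted p = 0.00356). Its PSI was 0.070 in both ED668 libraries.

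The other calls that were higher were SPNCRNA.1500 and SPNCRNA.828. SPNCRNA.1500 had 17 and 11 reads in the upf1 deletion and 3 and 0 in ED668 (log2 change 2.79, SE 0.77, edgeR adjusted p = 0.00890). It was tested in only 6 of the 7 alternatives and kept its call in 4 of them. The call was lost without ED668 library 2 and without 1 of the deletion libraries. SPNCRNA.828 (chrI:2451468-2451539) had 25 and 25 reads in the upf1 deletion and 7 and 8 in ED668, with a log2 change of 1.39 (edgeR adjusted p = 0.0117), and lost its call without ED668 library 1 (0.0633), with DESeq2 (0.128) and without the count filter (0.0543).

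Among the lower calls, SPNCRNA.1042 had 20 and 16 reads in the upf1 deletion and 29 and 32 in ED668, with a log2 change of -1.09 (edgeR adjusted p = 0.00685), and lost its call without TMM (adjusted p = 0.0502) and in DESeq2. The snoZ3 junction had 26 and 37 reads in the upf1 deletion and 59 and 40 in ED668, with a log2 change of -0.98 (edgeR adjusted p = 0.0134), and lost its call without ED668 library 1 (adjusted p = 0.191) and without 1 of the deletion libraries (0.0836), among others. The SPNCRNA.1597 change was -0.45 (edgeR adjusted p = 0.0209), and it was -0.19 (adjusted p = 0.427) without TMM. It lost its call without ED668 library 1 (adjusted p = 0.118) and without 1 of the deletion libraries (0.0934). Lower still were SPNCRNA.1626 at -2.10, SPNCRNA.1617 at -1.55, SPNCRNA.1692 at -1.52 and the 99-base intron of SPNCRNA.1358 at -1.41, with 2 to 11 reads in each deletion library and 10 to 25 in each ED668 library. These 4 kept their calls in 1 to 3 of 7 alternatives, and each lost it when at least 2 of the 4 libraries were left out in turn, with an edgeR adjusted p of up to 0.543.

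**Figure D5:**
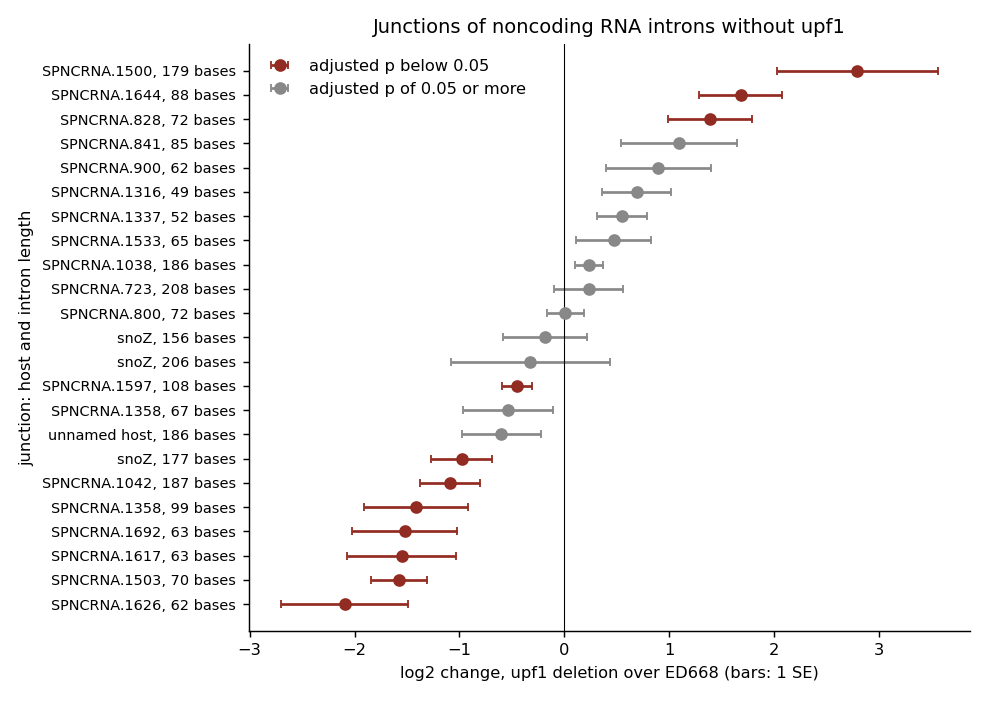
Log2 change of junction reads in the upf1 deletion over ED668 (x axis, bars are 1 SE from the edgeR fit) for the 23 tested junctions, named by host and intron length. Red points mark the 11 with an adjusted p below 0.05, of which 3 lie above and 8 below 0.

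Of the other 12 tested junctions, SPNCRNA.800 was nearest to no change, with a log2 value of 0.01 (SE 0.18). SPNCRNA.1038 had 0.24 (SE 0.13, edgeR adjusted p = 0.171). The snoZ intron with snoZ4 had 18 and 15 junction reads in the upf1 deletion but 33 and 0 in ED668, so that leaving out either ED668 library gave a call, at a log2 change of 6.94 without the first and -1.35 without the second. Whether a higher or lower count reflects more RNA per cell or more cells with the RNA cannot be told apart in these cultures.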

How the data were processed

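Introns were taken from the authors' table of unannotated introns (type ncRNA) and joined on chromosome, 5' splice site and branch point to the table with RNA-seq values. Lariat counts and junction counts were used as deposited by the authors, as whole reads not scaled for depth, the lariat counts being sums over the 4 libraries of a condition. The authors also deposited PSI, a fraction, and the 2 PSI columns of the upf1 deletion were not used because both headers carry the same replicate number. Other values, namely positions, lengths and types, were assigned by the authors as deposited. Which aligner was used is not stated in the labels or headers. The submitters' processing notes name ASM294v2 as the build.

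Lariat ratios were scaled by annotated reads, with exact (Clopper-Pearson) 95% intervals. Since the lariat columns are sums per condition, no test between lariat libraries was made. Junctions were tested with edgeR 4.0.16 in R 4.3.3 (quasi-likelihood, TMM, filterByExpr with a minimum count of 10, Benjamini-Hochberg adjusted p below 0.05) over all tested junctions, with strain and condition as terms for the 6 growth libraries. For upf1 the 4 ED668 libraries were fitted, and both deletion libraries took the mean of their aligned totals. DESeq2 1.42.0 was an alternative. The scripts were tested on simulated data. Tables and plots used pysam 0.24.0, SciPy 1.17.1, pandas 2.3.3, matplotlib 3.10.9 and NumPy 2.4.6 under Python 3.11.15.

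Introns named were the 10 with most lariat reads, the 5 highest and 5 lowest ratios against rich media per condition (at least 20 reads), the 10 junctions with most reads, the 5 highest mean PSI and all calls. Hosts with at least 3 introns are given as counts, by name from 7 introns on. The introns and all lists were chosen with earlier results of these data known. Of 244 hosts, 237 matched RefSeq by identifier and 2 by synonym.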

Additional observations from a re-analysis of the deposited data

Results flagged for a closer look

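The intron of SPNCRNA.659 (snoZ) at 526905 to 527091 on chromosome I was singled out because its reads are not divided among the conditions. The authors' total for it is 620 reads, of which the condition columns hold 1, so 619 reads have no condition. For every other intron of the set the total equals the sum of the 3 conditions. The 619 reads entered totals over all conditions but no ratio between conditions, other than the bounds given for them.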

How the results depend on the processing

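Scaling by all reads of the lariat libraries moved the summed ratio of heat shock over rich media to 2.97. It turned the diauxic ratio to 4.26 and heat shock over diauxic shift to 0.696. Without the most read intron the 3 ratios were 1.36, 0.717 and 1.90. Without introns that hold a small RNA, chosen after seeing the data, heat shock over rich media was 1.24 and heat shock over diauxic shift 1.62. Against annotated introns of like length, also chosen after seeing the data, they were 0.725, 0.611 and 1.16. The 619 reads without a condition, counted for either side after seeing the data, gave 1.70 as heat shock and 1.52 as rich media reads for heat shock over rich media. For diauxic shift over rich media they gave 0.807 as diauxic and 0.738 as rich media reads, and for heat shock over diauxic shift 2.22 as heat shock and 1.96 as diauxic reads. Scaling by all branch reads and leaving out introns under 10 reads moved them by less than their counting intervals.

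On the scale of all reads of the lariat libraries, diauxic ratios turned above 1 for SPNCRNA.1038 (3.37) and the main introns with snoZ8 (3.46), snR70 (2.50) and snoZ5 (2.60). They also did for SPNCRNA.1308 (1.21), SPNCRNA.1358 (2.83), SPNCRNA.190 (2.09), SPNCRNA.1503 (3.02), SPNCRNA.1042 (2.56) and SPNCRNA.1644 (1.24). Heat shock over rich media turned above 1 for SPNCRNA.1358 (1.07). Heat shock over diauxic shift turned below 1 for the introns with snoZ3 (0.877), snoZ8 (0.690), snR70 (0.937) and snoZ7 (0.983) and for SPNCRNA.1503 (0.558).

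For upf1, junctions called in the set went to 6 without TMM and 5 with DESeq2, against 11, and leaving out 1 library gave 6 to 9. The leave-one-out fits left 1 library in 1 strain and tested 30 to 36 junctions of the set, against 23. Each also called junctions outside the 11, so that range does not count how many of the 11 kept their call. Without TMM 5 of the 6 were among the 11, and with DESeq2 all 5 were. Over all 186 junctions the calls were 72 without TMM and 53 with DESeq2, against 86. For heat shock over rich media, leaving out 1 library gave 0 to 1. The cause of these changes was not tested. No paired analysis was possible because both upf1 deletion columns carry the same replicate number, the growth libraries carry none and lariat values are sums. Low counts limit the tests, since 97 and 186 junctions passed the count filter.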
